A study of Mus musculus with 6 samples.

Results

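The immunity-related GTPase genes were followed in mouse embryonic stem (ES) cells after knockdown of BRG1, the ATPase of the BAF chromatin remodelling complex, encoded by Smarca4. The genes were chosen by name, with earlier results of the same comparison in view: the array names Igtp, Iigp2, Irgm and Tgtp, and also Iigp1. These 5 gene names, of 27962 on the array, carried 8 of its 41174 probes. In current nomenclature Irgm is Irgm1, Iigp2 is Irgm2 and Tgtp is Tgtp1. Total RNA came from cultured ES cells of an F1 background from 129 and C57BL/6 in both groups. One group of 3 samples received a scrambled control siRNA and the other group of 3 samples an siRNA against BRG1, each for 48 h. Every sample was hybridised to its own single-colour Agilent array. The knockdown was partial, and the labels name neither the ES cell line nor the siRNA sequence.

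Immunity-related GTPases are large GTP-binding proteins that interferons induce strongly in mouse cells and that protect against intracellular microbes. The effector members, among them Tgtp1 and Iigp1, load onto the vacuole around a parasite such as Toxoplasma and break it. The regulatory members Irgm1, Irgm2 and Igtp, also called Irgm3, sit on the cell's own membranes and keep the effectors inactive there. Interferon reaches these genes through JAK kinases and STAT and IRF transcription factors, which bind gamma-activated sites (GAS) and interferon-stimulated response elements (ISRE).

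The promoters are shown because their interferon-response motifs are not read from the array values. The genes were chosen by name as a family that interferons induce, so the matches are no independent test. The sequences are from RefSeq on build GRCm38.p6, which differs from the mm7 build of the array's probe coordinates. RefSeq windows of 300 bases matched 4 of the 5 names. Printed here are the 120 bases before the start of each gene, 5′ to 3′ on the gene's strand, with capitals for matches to GAS (TTCNNNGAA, which reads alike on both strands) or to the ISRE core (GAAANNGAAA, or TTTCNNTTTC on the other strand).
Tgtp1, chr11:48992247-48992366, minus strand: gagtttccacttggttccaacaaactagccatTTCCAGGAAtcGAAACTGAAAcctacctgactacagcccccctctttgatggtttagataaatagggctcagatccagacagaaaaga
Irgm1, chr11:48871421-48871540, minus strand: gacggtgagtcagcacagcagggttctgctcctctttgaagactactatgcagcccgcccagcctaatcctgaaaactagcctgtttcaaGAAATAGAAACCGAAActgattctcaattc
Irgm2, chr11:58214857-58214976, plus strand: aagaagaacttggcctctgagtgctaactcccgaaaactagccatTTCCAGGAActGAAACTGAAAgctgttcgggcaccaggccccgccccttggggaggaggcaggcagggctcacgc
Igtp, chr11:58199436-58199555, plus strand: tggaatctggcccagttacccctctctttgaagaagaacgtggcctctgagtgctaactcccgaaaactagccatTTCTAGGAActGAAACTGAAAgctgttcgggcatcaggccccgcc

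In the 300-base window, which runs from 250 bases before the start to 50 after it, Tgtp1, Irgm2 and Igtp each held a GAS match followed by an ISRE core match. The GAS match lay at -88 to -80 in Tgtp1, at -75 to -67 in Irgm2 and at -45 to -37 in Igtp, counted from the start of the gene. Each was followed after 2 bases by an ISRE core, at -77 to -68, -64 to -55 and -34 to -25. The Irgm1 window held 2 overlapping ISRE core matches, at -30 to -21 and -24 to -15, and no GAS match. Of 32851 promoter windows of the same length, 8.30% held the GAS letters, 3.44% the ISRE core and 0.454% both. The windows shown belong to related genes of an interferon-induced family, so no enrichment is read from these shares. The Irgm2 and Igtp windows were the most alike, with 73.5% identical bases and a shared run of 61 bases, whereas the other pairs had between 46.4% and 53.9%. The order and spacing of the motif pair were the same in Tgtp1, Irgm2 and Igtp. Whether the motifs relate to the changes after BRG1 siRNA was not tested. A letter match is a description and not a bound site.

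**Figure D1:**
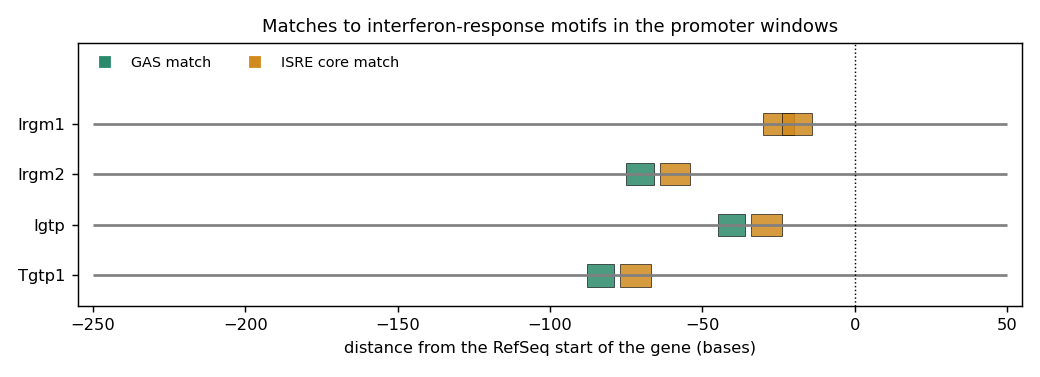
Positions of GAS matches (green) and ISRE core matches (orange) in the RefSeq promoter windows of 4 immunity-related GTPase genes; the horizontal axis is the distance in bases from the start of the gene (dotted line) and each grey line is a window. Irgm2, Igtp and Tgtp1 carry a GAS match followed by an ISRE core, while Irgm1 carries 2 overlapping ISRE cores nearer to its start.

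Signals are given as log2 of the background-subtracted spot signal relative to the 75th percentile of its array, so 0 is the level of that percentile and 1 unit is a 2-fold difference. The targeted gene Smarca4 was lower on every BRG1 siRNA array, at 54.7% to 66.2% of control over its 3 probes. Between 60.9% and 75.3% of spots were well above background per array. The 3 control arrays and BRG1 siRNA array 1 shared a slide, and BRG1 siRNA arrays 2 and 3 lay on the other slide. Values within the shared slide are therefore given as well. With slide as a block, a change compares only BRG1 siRNA array 1 with the controls, as the other slide held no control. A call lost in that fit cannot tell a slide effect from lost precision. Of 17759 genes tested (limma, Benjamini-Hochberg adjusted p under 0.05), 23.3% passed the threshold: 9.87% higher and 13.4% lower after BRG1 siRNA. With spike-in scaling the median of all genes moved from -0.04 to 0.15 and the split changed to 3698 higher and 704 lower, against 1752 and 2387. All 14 measured ES cell markers were well above background on all 6 arrays. Their summed signal was 492 to 498 times the 75th percentile in controls and 497 to 517 after BRG1 siRNA. Dppa5 and Zfp42 were the brightest of them, with control means of 7.91 and 6.87. Of the 14 tested, 4 were higher (Utf1 1.35-fold, Nanog 1.33-fold, Klf4 1.27-fold and Lin28 1.27-fold) and Pou5f1 was 1.25-fold lower. Each of these calls was lost without certain single arrays (limma adjusted p up to 0.107). Summed fibroblast markers, as feeder cells would carry, were 85.9 to 88.7 against 78.6 to 80.5, with 17 of 20 above background on all 6 arrays, 7 of 18 tested lower and 2 higher. The brightest fibroblast markers, Acta2, Vim and Sparc (control means 4.76, 4.61 and 3.61), did not pass. Summed macrophage and blood markers were 2.85 to 2.96 against 2.41 to 2.65. Of 16 such markers, 8 were above background on all 6 arrays, the defining markers Emr1 on none and Ptprc and Sfpi1 on 1 each. Among the 11 tested, Coro1a, the brightest (control mean 0.45), was 1.39-fold lower, Cd68 was 1.39-fold higher and 9 did not pass. With slide as a block Coro1a lost its call (limma adjusted p = 0.0610). Trophoblast and primitive endoderm markers summed to 70.5 to 81.6 against 80.4 to 84.8. Most of that sum is Krt18 and Krt8 (control means 5.44 and 4.96), and neither passed. Of these markers, 9 of 11 were above background on all 6 arrays and Elf5 and Afp on none. Among the 9 tested, 4 were lower (Cdx2 1.93-fold, Krt7 1.73-fold, Eomes 1.58-fold and Dab2 1.49-fold) and no other passed. Each sum is weighted to its brightest markers, so it does not give the share of a cell type. The part of these shifts in the results on the GTPases and interferon genes was not tested, and in bulk RNA fewer cells of a type and less RNA per cell cannot be told apart.

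Because the members were chosen from this contrast, their values are a description. Tgtp was the member with the largest fall, Irgm followed, Iigp2 was moderately lower, and Igtp was near the control level. Of the 5 names, 4 were bright enough to test and Iigp1 was not. Tgtp, Irgm and Iigp2 passed the threshold, all lower, and in the same 3 every BRG1 siRNA array lay below every control array. Over all genes tested, 13.4% were called lower and 25.1% had non-overlapping groups with BRG1 siRNA lower. Tgtp and Irgm fell at least 2-fold, as did 0.918% of all genes. Nothing is read from these counts.

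Tgtp1 encodes an effector GTPase of the vacuole (also called Irgb6), and its array name Tgtp has 2 probes that behaved differently. The first matches NM_011579 at chr11:48943424-48943483 on the minus strand in mm7; no gene model of that build was used here, so the exon is not assigned. Its sequence is shown because the largest change among the members rests on it.
Tgtp probe A_52_P676510: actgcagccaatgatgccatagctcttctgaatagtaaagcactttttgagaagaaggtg
One of its 3 reading frames on the given strand is free of stop codons, which over 60 bases does not show that it lies in coding sequence. This probe read -2.31, -2.33 and -2.14 on control arrays 1, 2 and 3, and -4.28, -4.22 and -4.28 on BRG1 siRNA arrays 1, 2 and 3. The BRG1 siRNA arrays were all lower, with a gap of 1.88 between the groups, many times the spread within either. The mean went from -2.26 ± 0.10 to -4.26 ± 0.04 (SD, n = 3 each), a log2 change of -2.00 ± 0.06 (SE), which is 3.99-fold lower. Within the shared slide the fall was 4.04-fold.

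The second Tgtp probe, on the same strand at chr11:48942838-48942897, was dimmer and showed no such separation. It read -4.42, -5.53 and -4.68 in controls and -5.15, -5.27 and -4.41 after BRG1 siRNA. The groups overlapped, and the probe was well above background on only 2 of 3 arrays in each, so it was not tested. Its means were -4.88 ± 0.58 and -4.94 ± 0.46. None of its 3 reading frames was free of stop codons, and why the 2 probes differ was not tested. Averaged over both probes, the Tgtp change became -1.03, still below 0. Tgtp1 has the near-identical neighbour Tgtp2, and which copy contributed signal cannot be told apart here.

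Iigp1 encodes the best studied effector (Irga6), and its probe, for NM_021792 on chromosome 18, was at the edge of detection. Its linear signals were 55.9, 38.4 and 66.1 in controls and 10.6, 15.3 and 17.2 after BRG1 siRNA. All BRG1 siRNA signals were below all control signals. It was well above background on 2 of 3 control arrays and on none after BRG1 siRNA. Because not every control array was above background either, neither a fold nor a bound on it is given.

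Irgm1 encodes a regulatory GTPase that also takes part in autophagy, and 2 of its 3 probes under the array name Irgm were bright. The probe that represents the gene, for NM_008326 at chr11:48822320-48822379 on the minus strand, read -0.54, -0.42 and -0.33 in controls and -1.56, -1.73 and -1.72 after BRG1 siRNA. The groups were separated by a gap of 1.02. The mean went from -0.43 ± 0.10 to -1.67 ± 0.10 (SD, n = 3 each), a change of -1.24 ± 0.08 (SE), which is 2.36-fold lower. BRG1 siRNA array 1 was the least lowered of its group, and the fall within the shared slide was 2.19-fold.

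The other bright Irgm probe, for the same transcript at chr11:48822670-48822729, gave a similar picture. It read -0.94, -0.83 and -0.92 in controls and -2.25, -2.33 and -2.29 after BRG1 siRNA. Again the groups did not overlap, and the fall was 2.63-fold (log2 change -1.39 ± 0.05, SE), or 2.56-fold within the shared slide. The remaining probe, for AK083346 at chr11:48819462-48819521, was not well above background on any array. Its linear signals were 9.73 to 13.0 in controls and 10.3 to 16.6 after BRG1 siRNA, so it gives no fold. Averaging in that dark probe brought the Irgm change to -0.80, which moved the value by over 1.5 times.

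Irgm2, the regulator under the array name Iigp2, has a single probe, for NM_019440 at chr11:58304107-58304166 on the plus strand. It read -3.16, -2.88 and -2.88 in controls and -3.47, -3.65 and -3.34 after BRG1 siRNA. The groups did not overlap, but the gap of 0.17 was about as large as the SD within each. The mean went from -2.98 ± 0.16 to -3.48 ± 0.16 (SD, n = 3 each), a change of -0.51 ± 0.11 (SE), which is 1.42-fold lower. Within the shared slide the fall was 1.41-fold. Spike-in scaling reduced the change to -0.32.

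Igtp encodes the third regulator and lies beside Irgm2, with a probe for NM_018738 at chr11:58288970-58289029 on the plus strand. It read -1.12, -0.94 and -0.90 in controls and -1.04, -1.10 and -0.93 after BRG1 siRNA. The groups overlapped throughout. The mean went from -0.99 ± 0.12 to -1.02 ± 0.09 (SD, n = 3 each), and the change of -0.04 ± 0.08 (SE) was smaller than its error. Its sign turned with median scaling (0.013), with spike-in scaling (0.15) and without control replicate 3 (0.0040), so no direction is given.

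**Figure D2:**
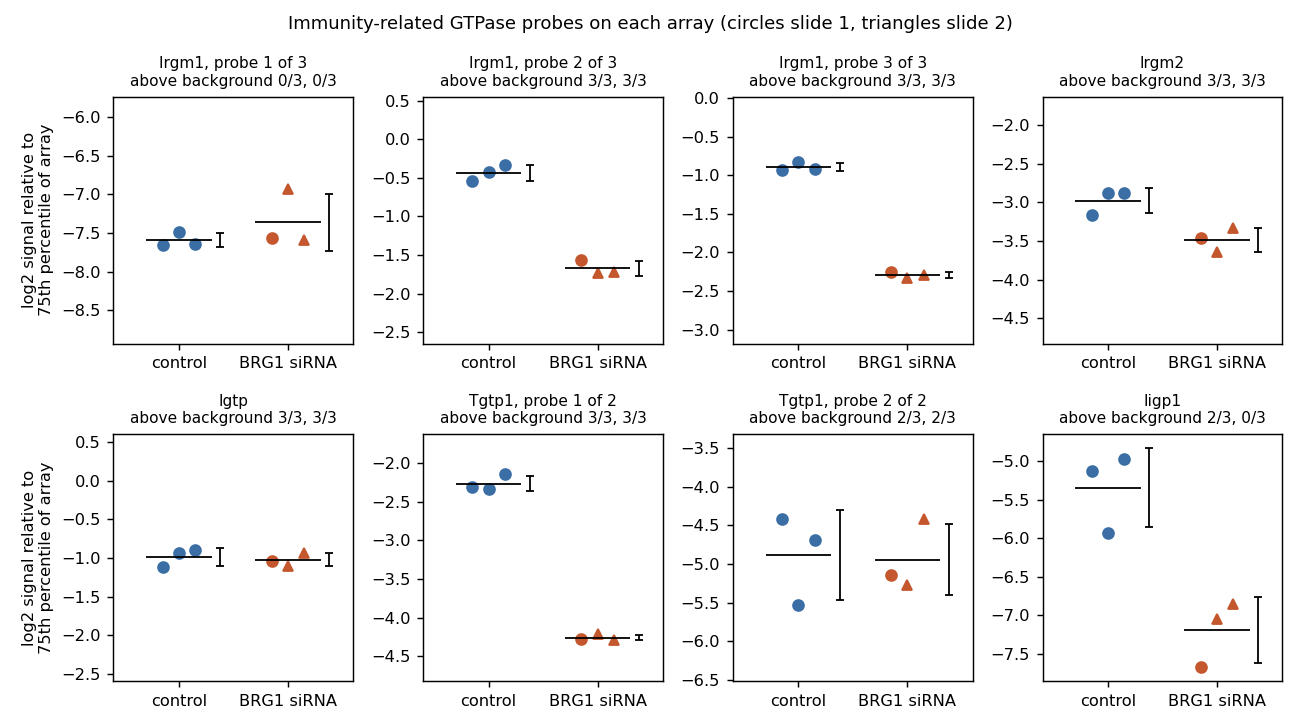
Each panel is a probe and each point an array, on the log2 scale used in the text; circles are slide 1, triangles slide 2, horizontal lines means and bars the SD (n = 3). The panels share the same span but not the same origin; In the order of the panels, Tgtp1 probe 1 and Irgm1 probes 2 and 3 separate by more than 1 unit, while Igtp, Tgtp1 probe 2 and the dark Irgm1 probe 1 (AK083346) overlap.

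The members therefore did not shift as a block. Irgm and Tgtp, whose probes lie within 124022 bases of each other on chromosome 11, were the most lowered pair, and Igtp and Iigp2, within 15197 bases at a second place on that chromosome, the least. Ranked among 17759 genes from the most lowered, Tgtp stood at 12, Irgm at 85, Iigp2 at 1118 and Igtp at 8821. Over 20 processing alternatives the change ran from -2.03 to -1.03 for Tgtp, from -1.29 to -0.80 for Irgm and from -0.60 to -0.32 for Iigp2, below 0 in all 20 for each. Igtp ran from -0.11 to 0.15. Alternatives that alter only the filter on dim probes, the replicate block or the variance model cannot move these changes. The 20 are therefore not independent checks. Background correction by normexp, which adds an offset and so shrinks changes of dim probes, gave -1.43 for Tgtp and -1.08 for Irgm.

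**Figure D3:**
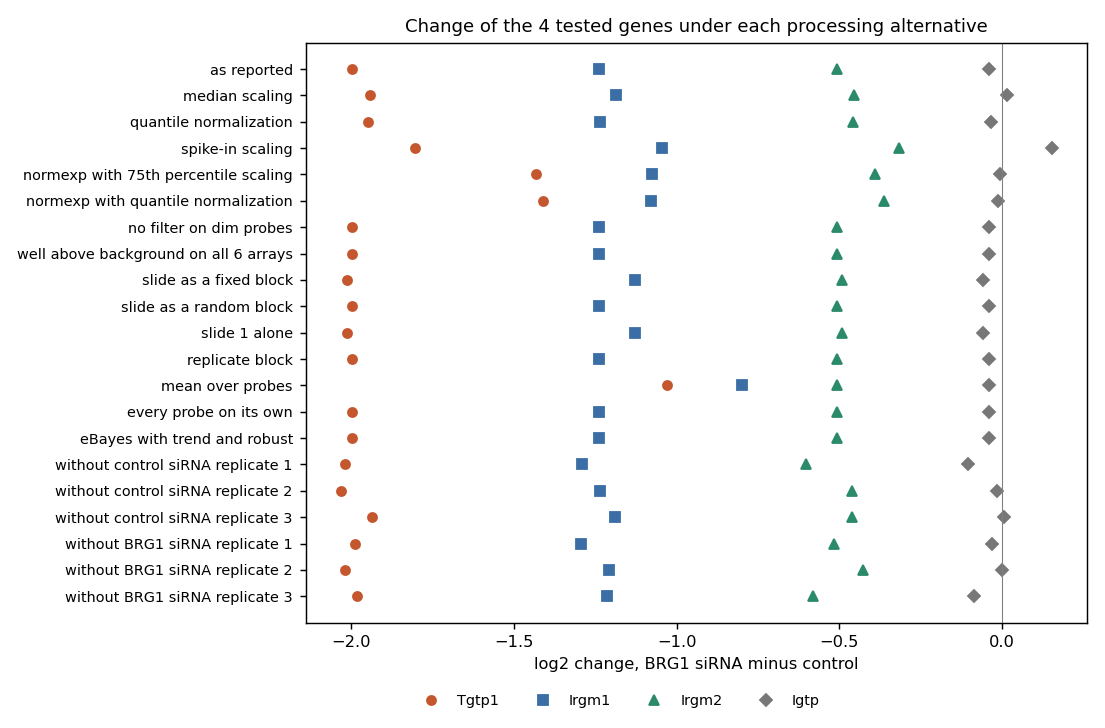
Log2 change (BRG1 siRNA minus control) of the 4 tested genes, a row per processing setting. Tgtp1 stays the lowest and Igtp the nearest to 0 in every row; the mean over probes moves Tgtp1 to -1.03 and Irgm1 to -0.80.

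The genes with the most similar profiles were found by the root mean square distance between centred log2 profiles over the 6 arrays, among 16488 genes above background on all of them. Since 2 groups of 3 arrays dominate such a profile, likeness here mostly means a fall of similar size. Nearest to the mean of the 4 tested members were Cdx2, a caudal transcription factor, at 0.027, Mycl1 (Mycl), a MYC family factor, at 0.032, Optn, an autophagy receptor, at 0.033, Irf1 at 0.041 and Chst1, a sulfotransferase, at 0.041. The median distance of all genes was 0.483. Irf1 is the only one of these 5 on the interferon signalling list. Irgm alone was nearest to Fst, which encodes follistatin, at 0.067, and Glrx, which encodes glutaredoxin, at 0.083. Iigp2 was nearest to Hfe2 (Hjv) at 0.027 and Zfp608 at 0.058, and Igtp to 1110067D22Rik (Lgalsl) at 0.027 and 1300014I06Rik (Pxdc1) at 0.031. Tgtp was nearest to T (brachyury) at 0.147 and Sp5 at 0.186, a pair of genes of the primitive streak programme; T was 4.02-fold and Sp5 3.18-fold lower.

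The other parts of the interferon pathway moved in both directions. For comparison with the count of each list, 13.4% of all genes tested were called lower and 9.87% higher. On the list of ligands, receptors, kinases and transcription factors, 27 of 41 genes were tested: 9 fell, 4 rose and 14 did not pass, with a median log2 change of -0.14 beside -0.04 for all genes. Among the ligands, Ifng, the type II interferon, was well above background on 2 control arrays and 1 BRG1 siRNA array, and Ifnb1 on none. Ifna1, named after its values were seen, was dim (-5.37 to -3.46) but well above background on all 6 arrays. Its change was 0.22 ± 0.54 (SE, limma adjusted p = 0.804). The other listed ligands on the array, Ifna2, Ifna4, Ifnk and Ifne1, also named afterwards, were above background on none. Among receptor chains, Ifngr1 fell 1.33-fold (limma adjusted p = 0.0124), Ifnar1 rose 1.34-fold (adjusted p = 0.00876) and Ifnar2 fell 1.12-fold (adjusted p = 0.0369), while Ifngr2 had a change of -0.09 ± 0.05 (SE, limma adjusted p = 0.288). The lambda receptor chain Il28ra fell 1.53-fold (limma adjusted p = 0.00233). The kinases Jak1 and Jak2 rose 1.43-fold and 1.22-fold (limma adjusted p = 0.00391 and 0.00728), and Tyk2 had a change of 0.0028 ± 0.09 (SE, adjusted p = 0.986).

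Downstream of the kinases, Stat2 had a change of -0.14 that did not pass (limma adjusted p = 0.0891). Irf1, a transcription factor that binds ISREs, read 3.22, 3.33 and 3.40 in controls and 2.39, 2.41 and 2.47 after BRG1 siRNA. Its groups did not overlap, and it fell 1.86-fold (log2 change -0.90 ± 0.06, SE, limma adjusted p = 0.00147). Irf9, named Isgf3g on the array, rose 1.30-fold (limma adjusted p = 0.0111), and the feedback inhibitor Socs1 fell 1.29-fold (limma adjusted p = 0.018). Some of these calls were lost when 1 array was left out. The count over all genes then ran from 1641 to 4413, against 4139 with all arrays. Ifngr1 lost its call without control 2, control 3 or BRG1 siRNA 2 (limma adjusted p up to 0.0585), Ifnar2 without any array but BRG1 siRNA 3 (up to 0.117), Socs1 likewise (up to 0.0781) and Irf9 without BRG1 siRNA 2 (0.0517). With 1 array left out, between 7 and 13 of the 27 genes passed, fewest without control 3 or BRG1 siRNA 2 (7 each) and 8 without control 2. With slide as a block the adjusted p (limma) was 0.0531 for Jak2, 0.0883 for Irf9, 0.0557 for Ifngr1, 0.0681 for Socs1 and 0.111 for Ifnar2. The slide block compares only BRG1 siRNA array 1 with the controls, so these losses may be of precision alone. The call of Jak2 was also lost with median scaling, and Ifnar2 turned to 0.03 with spike-in scaling.

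Among other interferon-induced genes, 43 of 58 were tested: 15 fell, 7 rose and 21 did not pass, with a median of -0.22. The largest falls were in Zbp1, a sensor of left-handed nucleic acid (3.48-fold, limma adjusted p = 0.0022), Oasl2 (2.17-fold, adjusted p = 0.00357), the ubiquitin-like Isg15 (2.08-fold, adjusted p = 0.00671) and the immunoproteasome subunit Psmb8 (2.07-fold, adjusted p = 0.00153). The largest rises were in the chemokines Cxcl11 (2.44-fold, limma adjusted p = 0.00194) and Cxcl10 (1.70-fold, adjusted p = 0.00242), the peptide transporter Tap1 (1.52-fold, adjusted p = 0.00201) and Oasl1 (1.40-fold, adjusted p = 0.0138). Oasl1 lost its call without control 3 or BRG1 siRNA 2 (limma adjusted p up to 0.0645) and with slide as a block (0.0772). Without control 3, 14 genes of the list passed in place of 22. The part of the lower fibroblast and blood marker sums in these falls was not tested. ISRE core matches were held by 20 of the 39 promoter windows found for this list, and by 6 of 31 for the signalling list. Over all windows the share was 3.44%. The lists were chosen by name as interferon genes and include genes that did not fall, so no enrichment is read.

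Guanylate-binding proteins are a second family of interferon-induced GTPases that act at the same vacuoles. Of 14 listed, 8 were tested: 5 fell and 3 did not pass, with a median of -0.70. Those that did not pass were Gvin1 and Gbp5, at -0.12 and -0.09, and 5830443L24Rik (Gbp8), which was well above background on all 3 control arrays and on no BRG1 siRNA array (limma adjusted p = 0.735, 0.599 and 0.0864). Mpa2, now Gbp4, read lowest relative to control of all these genes: it fell 4.75-fold (log2 change -2.25 ± 0.07, SE, limma adjusted p = 0.00044) and was above background on 2 of 3 BRG1 siRNA arrays. The gene named Gbp1 on the array, now Gbp2b, fell 1.87-fold (limma adjusted p = 0.00498), the one named Gbp4, now Gbp3, fell 1.81-fold (adjusted p = 0.00141) and Gbp2 fell 1.46-fold (adjusted p = 0.0244). The call of Gbp2 was lost without control 2, control 3, BRG1 siRNA 2 or BRG1 siRNA 3 (limma adjusted p up to 0.0949), and with slide as a block it was 0.165, with 0.0538 for Gbp1. The fifth, BC057170 (Gbp9), fell 1.16-fold (limma adjusted p = 0.0364). Without 1 array, 3 or 4 of the 8 passed, with 3 when control 2, control 3 or BRG1 siRNA 2 was left out. All 4 promoter windows found for this list held an ISRE core match, against 3.44% of all windows. This family too was chosen as interferon-induced, so no enrichment is read.

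Other GTPases related to the members were barely measurable. Of 9 listed names, 4 were on the array and only Irgq was tested, with a change of -0.03 ± 0.08 (SE, limma adjusted p = 0.838). Irgc1 and 9930111J21Rik were above background on no array, and so was Ifi47, a further effector. Autophagy conjugation genes, whose products help place the GTPases at vacuoles, showed 4 falls and 3 rises among 20 tested, with a median of -0.0089. Over all genes tested 13.4% fell and 9.87% rose, so nothing is read from these counts. Atg10 rose 1.57-fold (limma adjusted p = 0.00222), Ube2n 1.20-fold (adjusted p = 0.0235) and Gabarapl2 1.17-fold (adjusted p = 0.0146). Trim21 fell 1.31-fold (limma adjusted p = 0.0083), Traf6 1.20-fold (adjusted p = 0.0334), Atg4a 1.18-fold (adjusted p = 0.0367) and Becn1 1.13-fold (adjusted p = 0.0301). Trim21 is also on the list of interferon-induced genes and is counted as a fall in both lists. Only Atg10 and Trim21 kept their calls whichever array was left out; the highest adjusted p of the others ran from 0.0722 for Gabarapl2 to 0.131 for Atg4a (limma). With slide as a block Trim21 had an adjusted p of 0.0692 (limma). With 1 array left out the list gave 2 to 5 calls, with 2 when control 2, control 3 or BRG1 siRNA 2 was missing, 3 without control 1 and 4 without BRG1 siRNA 1.

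**Figure D4:**
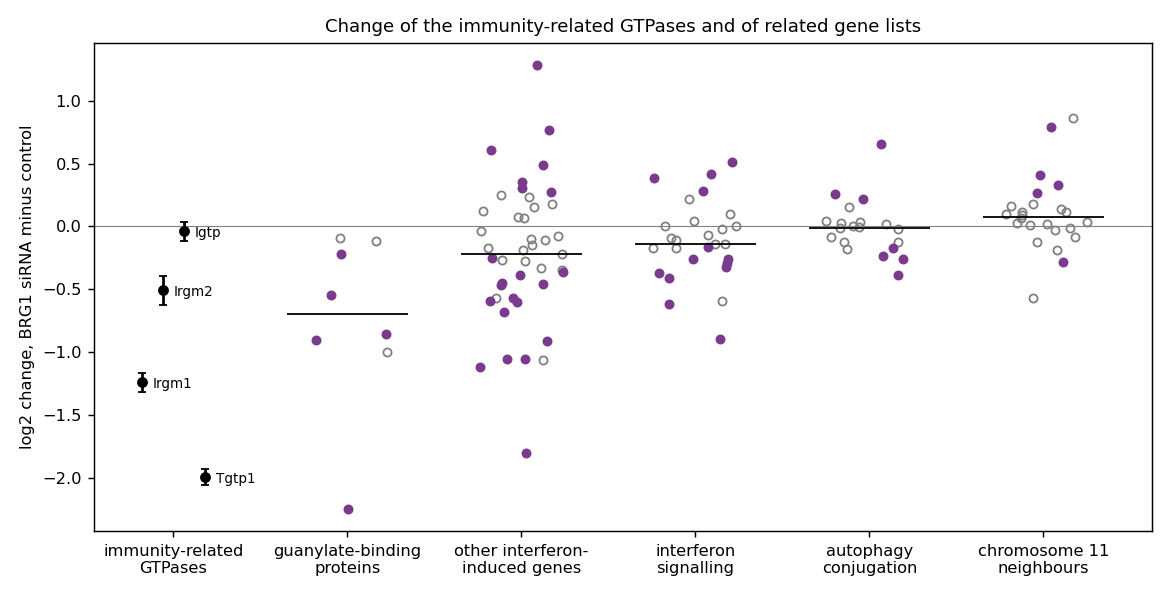
Log2 change (BRG1 siRNA minus control) of the 4 tested immunity-related GTPases (black, bars are SE) and of the genes of 5 lists; filled points passed the threshold (limma adjusted p under 0.05), open points did not, and horizontal lines are list medians. The guanylate-binding proteins have a median of -0.70 and the chromosome 11 neighbours 0.08.

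Genes beside the members on chromosome 11 had smaller changes than Tgtp and Irgm, which were chosen with this contrast in view. Nothing is read from that difference. Within 500000 bases of a member's probe lay 50 other gene names, of which 24 were tested. Of the 24, 4 rose, 1 fell and 19 did not pass, with a median of 0.08. Over all genes tested 9.87% rose and 13.4% fell, so nothing is read from these counts. Those not tested include the related genes Ifi47, 9930111J21Rik and RP23-14F5.8 (Gm5431). Around Irgm and Tgtp, 11 neighbours were tested, and their changes ran from -0.57 to 0.86. Only Mgat1 passed there, rising 1.21-fold (limma adjusted p = 0.028). Around Igtp and Iigp2, 13 were tested, from -0.29 to 0.79: Hand1, a heart and placenta transcription factor, rose 1.73-fold (limma adjusted p = 0.00475), Zfp672 1.33-fold (adjusted p = 0.00661) and Zfp692 1.26-fold (adjusted p = 0.0233), and Sap30l fell 1.22-fold (adjusted p = 0.0309). Mgat1, Zfp692 and Sap30l each lost the call without any of 5 of the 6 arrays (limma adjusted p up to 0.0988, 0.089 and 0.113), and Zfp672 with slide as a block (0.0617). With any 1 array left out, 2 to 4 of the 24 passed: 2 without control 1, 2 or 3 or BRG1 siRNA 2, and 3 without BRG1 siRNA 1. Near Iigp1, 8 of 11 neighbours were tested and 2 fell, Ndst1 1.33-fold (limma adjusted p = 0.00611) and 2010002N04Rik 1.13-fold (adjusted p = 0.0444). The latter lost its call without any one array (limma adjusted p 0.0515 to 0.14) and turned to 0.016 with spike-in scaling.

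**Figure D5:**
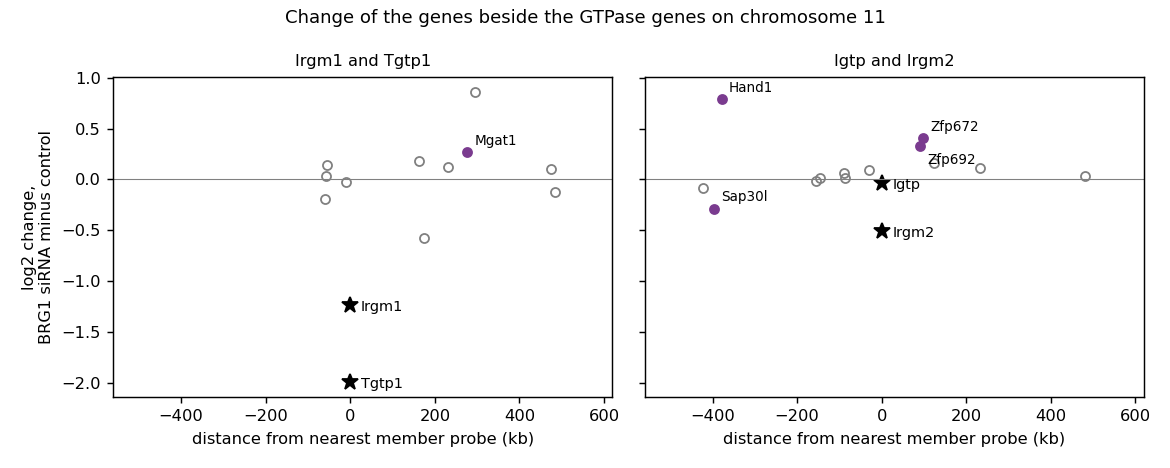
Log2 change (BRG1 siRNA minus control) of tested genes within 500 kb of the members against the distance in kb from the nearest member probe, at both places on chromosome 11; stars are the members, filled points passed the threshold and open points did not. Irgm1 at -1.24 and Tgtp1 at -2.00 lie below every neighbour, whose lowest value is -0.57. The members were chosen with this contrast in view, so the gap is a description.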

How the data were processed

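Total RNA of 6 mouse ES cell samples, 3 per group, was profiled on single-colour Agilent arrays, and labels gave the groups. Spot intensity in the deposited scanner files is linear and background-subtracted by Agilent Feature Extraction, version 9.5.3.1 per the file headers and 9.5 per the submitters' processing notes; headers give probe coordinates in mm7. The deposited value table was identical to the processed signal. From these, log2 signal minus the log2 75th percentile of each array's non-control spots was computed here. Outlier spots were set missing on their array, control spots dropped, and a gene was represented by its brightest probe if well above background on every array of a group. Changes were fitted with limma 3.58.1 (R 4.3.3) on 3 against 3 arrays and checked on simulated data. Precision is limited by having 3 arrays a group. Whether samples were separate cultures is not stated in the labels, and the p-values then reflect only how these samples vary, which may be technical.

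Members and lists were chosen with earlier results of these data known. Named were all members, fixed pathway genes (1 is not reported here), up to 4 called genes per list and direction by size of change, Smarca4, and the nearest profiles; the fifth guanylate-binding protein was named after its value was seen. Names were updated through RefSeq accessions for 11250 tested genes and symbols for 2254; 4255 kept the array's name. Same-numbered samples did not deviate together (r = -0.31, 0.11 and -0.018), so replicate numbers were not treated as pairs. Alternatives covered scaling, background correction, dim probes, slide, probes per gene and each array left out.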

Additional observations from a re-analysis of the deposited data

How the results depend on the processing

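Of 1139 values for named genes that are not members, each under 1 alternative, 866 kept direction and side of the threshold and 261 kept direction but lost the call. The sign of 3 called changes turned, each with spike-in scaling: Becn1 (0.019), 2010002N04Rik (0.016) and Ifnar2 (0.030). The other 9 were sign changes of uncalled genes: with spike-in scaling Ifngr2 (0.10) and Stat2 (0.050), and Tyk2 under 7 alternatives. The count of genes called, 4139, was 1734 with median scaling, 1740 with no filter on dim probes, 1392 with slide as a block, 59 on slide 1 alone, 1938 with the replicate block and 2585 with the mean over probes. In the order signalling, guanylate-binding, autophagy and neighbour lists (13, 5, 7 and 5 calls), there were 5, 3, 1 and 2 with median scaling, 6, 3, 1 and 2 with slide as a block, and 8, 3, 3 and 2 with the replicate block. Slide 1 alone gave 0, 1, 0 and 0, and 1 interferon-induced gene in place of 22. Zbp1 and Mpa2 were the calls among named genes. The fit on slide 1 alone has a lone BRG1 siRNA array assumed to vary like the controls, so its counts cannot tell absent changes from lost precision. With slide as a block the changes rest on the same lone array, so those counts cannot tell them apart either. Spike-in scaling gave 7, 3 and 4 for the first 3 lists, no filter 3, 2 and 2 for the last 3, the mean over probes 7 for signalling and 4 for autophagy, and normexp with 75th percentile scaling 4 for autophagy. Among members, spike-in scaling gave -1.05 for Irgm, -0.32 for Iigp2, 0.15 for Igtp and -1.80 for Tgtp. Normexp with 75th percentile scaling gave -1.08 for Irgm and -1.43 for Tgtp, and with quantile normalization -1.08 and -1.41. Slide as a block and slide 1 alone both gave -1.13 for Irgm, and the mean over probes -0.80 for Irgm and -1.03 for Tgtp. The causes were not tested.

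With each array left out in turn, the count of genes ran from 1641 to 4413 (2557, 1953 and 1641 without controls 1, 2 and 3, and 2279 and 2004 without BRG1 siRNA 1 and 2), signalling calls from 7 to 13, interferon-induced from 14 to 23, guanylate-binding from 3 to 4, autophagy from 2 to 5 and neighbours from 2 to 4. Irgm ran from -1.29 to -1.19, Iigp2 from -0.60 to -0.43, Igtp from -0.11 to 0.0040 and Tgtp from -2.03 to -1.94. The replicate block, which pairs samples by number only, cannot move the members' changes in groups of equal size, so they stayed as reported. Low signal limits Iigp1, the second Tgtp probe and the Irgm probe for AK083346.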
